A study of Mus musculus with 2 samples.

Results

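C1q-high tumour macrophages were examined in single-cell RNA sequencing of immune cells sorted out of mouse tumours grown from MC38, a colon carcinoma line. A barcode was a member when it held at least 3 UMIs (unique molecular identifiers, each standing for 1 captured transcript) of C1qa, C1qb and C1qc together and at least 3 of Csf1r, Lyz2 and Cd68 together. It also held no UMI of Cd3d, Cd3e or Cd3g, fewer than 2 of Ccl8 and Mrc1, and fewer than 2 of Hilpda, Ero1l, Egln3 and Ndrg1. Members were sought among barcodes with at least 1000 UMIs and at most 10% mitochondrial UMIs. Of 4495 such barcodes, 181 were members, 63 of 1174 in the control library and 118 of 3321 in the anti-PD-1 library.

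The tumours grew for 7 days after intradermal injection at 4 sites in C57BL/6J mice and then received, for 3 days, either a control injection or an antibody to PD-1, the inhibitory receptor of T cells, the antibody at 200 µg per mouse per day. Both libraries, labelled Control and aPD1, held viable CD45+ cells sorted on day 10, and no genotype other than the strain, no age and no number of mice are stated in the sources used here. What was injected as the control is not stated either. There was 1 library per group, so no test between conditions can be made and none is given.

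C1q is the recognition part of the classical complement pathway. Its 3 chains are each encoded by 1 gene, and in tissues these genes are transcribed mainly by macrophages rather than by hepatocytes. In tumours, C1q-transcribing macrophages are known for engulfing dying cells, for lipid handling and for presenting peptides on MHC class II. Monocytes arriving from blood acquire C1q transcripts as they turn into macrophages and lose monocyte transcripts such as Ly6c2 and Ccr2. Interferon gamma from T cells is known to induce chemokines and antigen presentation genes in such cells.

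Members made up 5.37% (4.15 to 6.81) of Control and 3.55% (2.95 to 4.24) of aPD1 barcodes, with exact 95% binomial intervals. Intervals given here and below cover counting error only and not differences between mice. Shares are parts of a whole, and 1583 of the aPD1 barcodes but 315 of the Control barcodes held at least 3 UMIs of the Cd3 genes and no UMI of Csf1r or Cd68. Members had a median of 4597 UMIs and 1604 genes in Control and 5276.5 UMIs and 1787.5 genes in aPD1, for summed totals of 330090 and 685713 UMIs. No member barcode occurred in both libraries, and 4 barcodes of all cells did.

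Members were selected on their UMIs of the C1q genes, the macrophage genes, the Cd3 genes, Ccl8, Mrc1 and the 4 hypoxia genes, and these values can only be described. C1qa, C1qb and C1qc lie side by side on chromosome 4 within 18.7 kb (136880129 to 136898803, minus strand, GRCm38). The summed level of the 3 genes was 12212 CPM in Control members, with an interval of 11838 to 12595, and 9008 CPM in aPD1 members, with an interval of 8785 to 9236. CPM is the UMIs of a gene scaled to a common total of all UMIs of the group. The members were compared with 3 other groups of macrophages and monocytes. Macrophages with Ccl8 or Mrc1 (52 Control and 17 aPD1 cells) had 13481 and 11739 CPM of C1q, and macrophages with the 4 hypoxia genes (48 and 34 cells) had 10497 and 9083 CPM. Macrophages and monocytes with fewer than 3 C1q UMIs (106 and 206 cells), called C1q-low here, had 50.3 and 22.2 CPM. High C1q therefore separated the members from the C1q-low cells and not from the other C1q-bearing groups.

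Of the markers in the label other than C1qa, none was counted by the rule. Apoe, an apolipoprotein that carries cholesterol, was at 11212 CPM (10854 to 11579) in Control members and at 3911 CPM (3765 to 4062) in those of aPD1. Ms4a7, a membrane protein of mature macrophages, was at 885 and 420 CPM. Gatm, which makes the creatine precursor guanidinoacetate, was at 615 and 321 CPM. Cd72, an inhibitory receptor also known from B cells, was at 612 and 239 CPM. Each was above the C1q-low cells of its own library, where Apoe was at 5033 and 806 CPM, Ms4a7 at 133 and 60.7, Gatm at 199 and 72.7, and Cd72 at 130 and 20.5. This comparison does not set members apart from the other C1q-bearing groups. Apoe was at a similar level in the Ccl8 or Mrc1 macrophages of the same library, with values given below. A UMI of Apoe was present in 63 of 63 Control and in 88 of 118 aPD1 members, and of Ms4a7 in 34 and 56.

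Members just inside the limit of 3 C1q UMIs differed from those well above it. In aPD1, the 11 members with 3 to 5 C1q UMIs had no UMI of Ms4a7 or Cd72 and 2477 CPM of S100a8, a calprotectin subunit of neutrophils and monocytes. The 36 aPD1 cells just outside, with 1 or 2 C1q UMIs, had 3442 CPM of S100a8, and the 82 members with at least 20 C1q UMIs had 141 CPM. In Control only 4 members had 3 to 5 C1q UMIs, and S100a8 was at 0 there.

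Markers of other cell types were set against the other macrophages and monocytes of the same library. Ms4a1 and Cd79a of B cells, Ncr1 of NK cells, Flt3, Zbtb46 and Xcr1 of dendritic cells, Foxp3 of regulatory T cells, and Epcam and Krt8 of epithelium were at 0 in members of both libraries, while other genes of these lists were detected. The 14 listed neutrophil genes summed to 60.6 CPM in Control and 685 CPM in aPD1 members, against 211 and 10180 CPM in the other macrophages and monocytes. The 15 NK and cytotoxic genes summed to 167 and 235 CPM, against 220 and 179 CPM. The 12 dendritic cell genes summed to 121 and 61.3 CPM, against 103 and 99.4 CPM. B cell genes summed to 30.3 CPM (10 UMIs) and 7.29 CPM (5 UMIs), against 11.8 and 3.31 CPM, and tumour and stromal genes to 60.6 and 24.8 CPM, against 29.0 and 13.9 CPM. Neutrophil genes were thus lower in members in both libraries, whereas B cell and tumour and stromal genes were higher in both, on few UMIs. The part of these transcripts in the results was not tested. A UMI of Ncr1, Klrb1c, Nkg7, Cd79a or Cd79b was found in 12 Control (19.0%) and 24 aPD1 members (20.3%). No doublet caller was run. Free RNA, read from barcodes with 10 to 50 UMIs, was estimated at 1.77% of a Control and 3.11% of an aPD1 cell.

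Compared with all other macrophages and monocytes of the same library, members stood apart in few genes. The other cells were the 3 groups above together, 206 in Control and 257 in aPD1. Of the 1413 genes that reached 50 UMIs and 50 CPM on the higher side, 19 (1.34%) were past 2-fold in the same direction in both libraries, 2 higher (0.142%) and 17 lower (1.2%) in members. The larger group of others reaches 50 UMIs more readily, and only 20.6% of the 1413 genes were higher in members in both libraries. With 20 UMIs of both sides together as the limit, 10 of 5480 genes were past 2-fold higher and 44 lower. The split between higher and lower genes thus depends in part on the limit. Because the members were drawn from these same cells, the differences are descriptions and no test is attached.

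The 2 genes past 2-fold were Cd72 and Slamf9. Cd72 was at 612 CPM in Control members against 212 CPM in the others, and at 239 against 57.0 CPM in aPD1, log2 ratios of 1.53 and 2.07. Slamf9, a receptor of the SLAM family, was at 151 against 69.9 CPM and at 104 against 41.8 CPM, log2 ratios of 1.12 and 1.31. With Control cells thinned to 1000 UMIs the Slamf9 ratio was 0.12, while with all UMIs it held in both libraries. Next came Ntpcr, a nucleoside triphosphatase (0.99 and 1.41), Axl, a receptor for apoptotic cells (0.84 and 1.20), and Acp5, tartrate-resistant acid phosphatase (0.81 and 1.19). Ecm1, a secreted matrix protein, was at 1.22 and 0.77. Other genes among the 15 highest were the interferon-induced Usp18 (0.74 and 0.93) and Bst2 (0.67 and 0.68), Ly6a (0.72 and 0.76), the adaptor Scimp (0.73 and 1.13) and the membrane-bound chemokine Cxcl16 (0.69 and 1.07). The Control ratio of Usp18 was 0.13 without the members that held a UMI of the lymphocyte genes above, and 0.19 with thinned cells. Gpr171, a G protein-coupled receptor, had 1.01 and 0.71, but -0.02 in Control when dendritic and NK cells were not kept out of the C1q-low group and -0.40 in aPD1 with cells thinned to 1000 UMIs.

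Ccl5, a chemokine that T and NK cells transcribe abundantly, was also among the 15 highest, at 1633 CPM in Control and 653 CPM in aPD1 members. A single Control member held 64.9% of the Control Ccl5 UMIs and a single aPD1 member 43.1% of those in aPD1. T cells had 5410 and 8126 CPM of Ccl5, and free RNA accounts for an estimated 39.0 and 136 CPM. The Ccl5 level therefore rested on few cells. Its log2 ratios over the others, 2.48 and 0.81, were 2.87 and 0.11 without the members that held a UMI of the lymphocyte genes above.

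The 15 lowest genes in members included Retnla, S100a8, S100a9, Mmp12 and Hp. Retnla, a resistin-like secreted protein, was at 18.2 CPM in Control and 0 in aPD1 members, where 0 UMIs allow up to 4.38 CPM, against 195 and 126 CPM in the others. S100a8 was at 6.06 and 489 CPM against 59.9 and 5908 CPM, log2 ratios of -2.72 with 2 Control UMIs set to 3 and -3.60. Mmp12, macrophage elastase, was at 9.09 and 10.2 CPM against 73.5 and 56.3 CPM. In aPD1 the Mmp12 ratio was -2.46, but -0.12 as a mean over cells. Hp (haptoglobin), Slpi (a protease inhibitor), Lyz1, Ifitm6 and Gsr were lower in both libraries, from -3.32 for Slpi in Control to -1.30 for Gsr in aPD1. With thinned cells the Control ratios of S100a8 (-0.17), Slpi (-0.79) and Lyz1 (-0.61) were short of 2-fold. Hilpda and Ero1l were also among the 15 lowest, and the rule itself set their low level.

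Set against each group alone, the members' differences were of distinct kinds. Against the Ccl8 or Mrc1 macrophages, 6 of 622 genes (0.965%) were past 2-fold in both libraries. Members had more Chil3, a chitinase-like secreted protein, at 439 against 46.0 CPM in Control and 706 against 54.2 CPM in aPD1 (log2 3.25 and 3.70). They also had more Ly6c2, a monocyte surface antigen, at 1957 against 517 CPM and 834 against 379 CPM (log2 1.92 and 1.14), and more Ifitm1 (2.11 and 2.14) and Napsa (1.26 and 1.67). They had less of the metallothionein Mt1 (-1.02 and -1.11) and the chemokine Ccl6 (-1.02 and -1.57). Of 10 measured monocyte genes, 7 were higher in members in both libraries and 1 was lower in both, where 25.6% of 3471 genes were higher and 26.9% lower in both. Only 17 aPD1 cells stood on the other side.

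Against the hypoxic macrophages, 14 of 743 genes (1.88%) were past 2-fold in both libraries. Hilpda (log2 -4.64 and -4.18) and Ero1l (-3.81 and -3.72) were the lowest of these, and the rule itself set their low level. The heme-degrading enzyme Hmox1 was at 87.9 against 764 CPM in Control and 106 against 669 CPM in aPD1. Spp1, the secreted phosphoprotein osteopontin, was at 87.9 against 500 CPM and 137 against 573 CPM. Bnip3, a mitochondrial protein induced by low oxygen, was at 90.9 against 422 and 54.0 against 219 CPM. Usp18 (1.03 and 1.30) and Chil3 (1.98 and 1.29) were the genes past 2-fold that were higher in members. Arg1, the arginine-degrading enzyme arginase 1, was at 1606 against 5025 CPM in Control and 615 against 2191 CPM in aPD1. Members were thus lower in Arg1, Hmox1 and Spp1 than hypoxic macrophages in both libraries.

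Against the C1q-low cells, 58 of 1041 genes (5.57%) were past 2-fold in both libraries. Besides the C1q genes, which the rule fixed, the highest were Ccl12, a ligand of the chemokine receptor CCR2, at 339 against 29.8 CPM in Control and 897 against 47.0 CPM in aPD1, and Ms4a7 (log2 2.74 and 2.79). Retnla, Hp, Slpi, Hilpda and Ear2 were lowest, of which the rule limited Hilpda in members. Ly6c2 went opposite ways by library when all other cells were combined, at 1957 against 932 CPM in Control (log2 1.07) and 834 against 1824 CPM in aPD1 (log2 -1.13). The C1q-low cells made up 106 of 206 other cells in Control and 206 of 257 in aPD1, so the comparison group itself was differently composed.

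**Figure D1:**
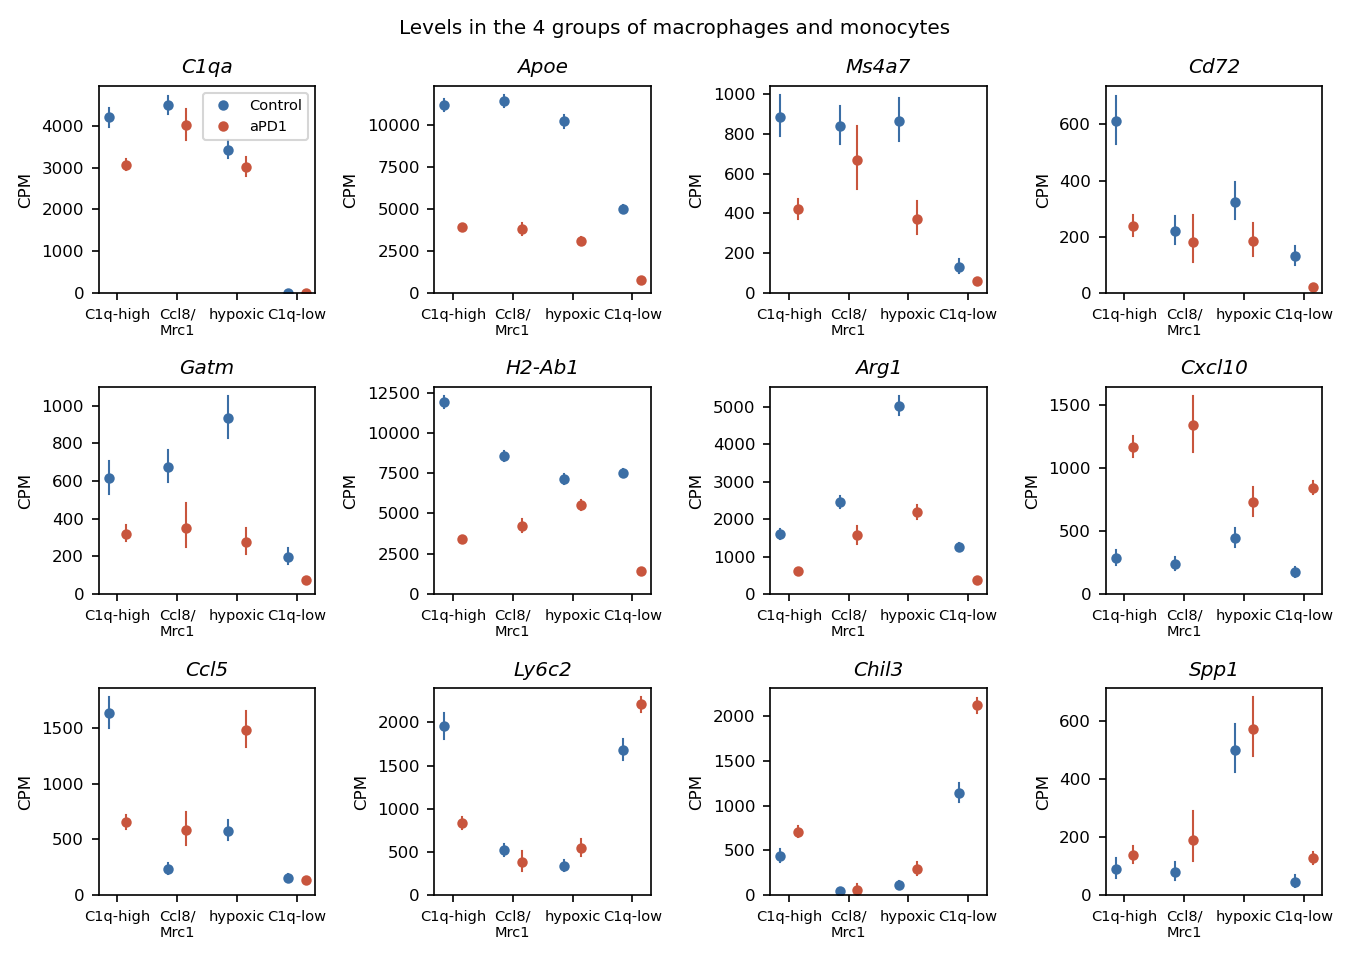
Level of 12 genes, in CPM (linear axis from 0), in the C1q-high members and the 3 other groups of macrophages and monocytes, for Control (blue) and aPD1 (red). Points are summed levels of 1 library and lines are exact 95% Poisson intervals, which cover counting error only. C1qa is at 4202 and 3074 CPM in members, and Cd72 is higher in members than in each other group of the same library.

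Gene lists were then compared, over genes that reached 20 UMIs in members and others summed, in each library. Of all 5480 such genes, 0.985% were past 2-fold in both libraries, 0.182% higher and 0.803% lower in members, and the median log2 ratios were -0.01 in Control and 0.02 in aPD1. At any size, 28.0% of them were higher in both libraries and 26.8% lower in both. Lists were fixed with earlier results of these data known, so their counts describe and do not support. Of 6 measured genes of the Ms4a family, all 6 were higher in members than in the other cells in both libraries, with median log2 ratios of 0.65 in Control and 0.18 in aPD1, and none was past 2-fold. Tissue macrophage genes were higher in both libraries in 9 of 13 (medians 0.40 and 1.23), Fc receptor genes in 5 of 8 (0.29 and 0.64), and type I interferon genes in 19 of 25 (0.37 and 0.52). Monocyte genes were lower in both in 14 of 17 (medians -0.68 and -1.13) and those of hypoxia and glycolysis in 19 of 25 (-0.42 and -0.23). The rule limited 4 hypoxia genes in members and 1 group of others was chosen for them, so this count is partly set by the rule. Against the hypoxic macrophages 21 of 22 were lower and 0 higher, where 21.8% of all genes were lower. Against the Ccl8 or Mrc1 macrophages 6 of 19 were lower and 2 higher (26.9% of all genes lower). Against the C1q-low cells 9 of 23 were lower and 4 higher (30.9%). Against the Ccl8 or Mrc1 macrophages alone, tissue macrophage genes were higher in both in 2 of 12 and lower in 4. Fc receptor genes were higher in 0 of 8 there and lower in 2, Ms4a genes 3 of 6 and 0, and type I interferon genes 8 of 20 and 2. Of all 3471 genes, 25.6% were higher and 26.9% lower. Against the hypoxic macrophages the higher counts were 9 of 12, 3 of 7, 5 of 6 and 12 of 21, where 34.2% of 3282 genes were higher in both.

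The comparison of the aPD1 with the Control library within members asks which genes differed between the libraries in these cells. Of the 1377 genes that reached 50 UMIs and 50 CPM in at least the higher library, 98 (7.12%) were past 2-fold, 59 higher (4.28%) and 39 lower (2.83%) in aPD1. The larger UMI total of aPD1 members lets more genes reach 50 UMIs there, and 67.2% of the 1377 were above 0 (median log2 0.16). Of 927 genes with 50 UMIs in both libraries, 49.6% were above 0 (median -0.003). The larger number of higher genes is therefore not read as a result. Past 2-fold higher were chemokines and GTPases that interferon gamma induces, among them Cxcl10, Cxcl9 and Gbp2, and the calprotectin gene S100a8. Among those past 2-fold lower were the MHC class II genes Cd74, H2-Ab1, H2-Eb1, H2-Aa and H2-DMb1, as well as Apoe, Arg1 and Cd72. For the lists below, members of a list with at least 20 UMIs in both libraries together were counted. Among all 4692 such genes 11.6% were past 2-fold, 7.54% higher and 4.09% lower, and the median log2 ratio was 0.05. At any size, 53.7% were higher and 46.3% lower.

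**Figure D2:**
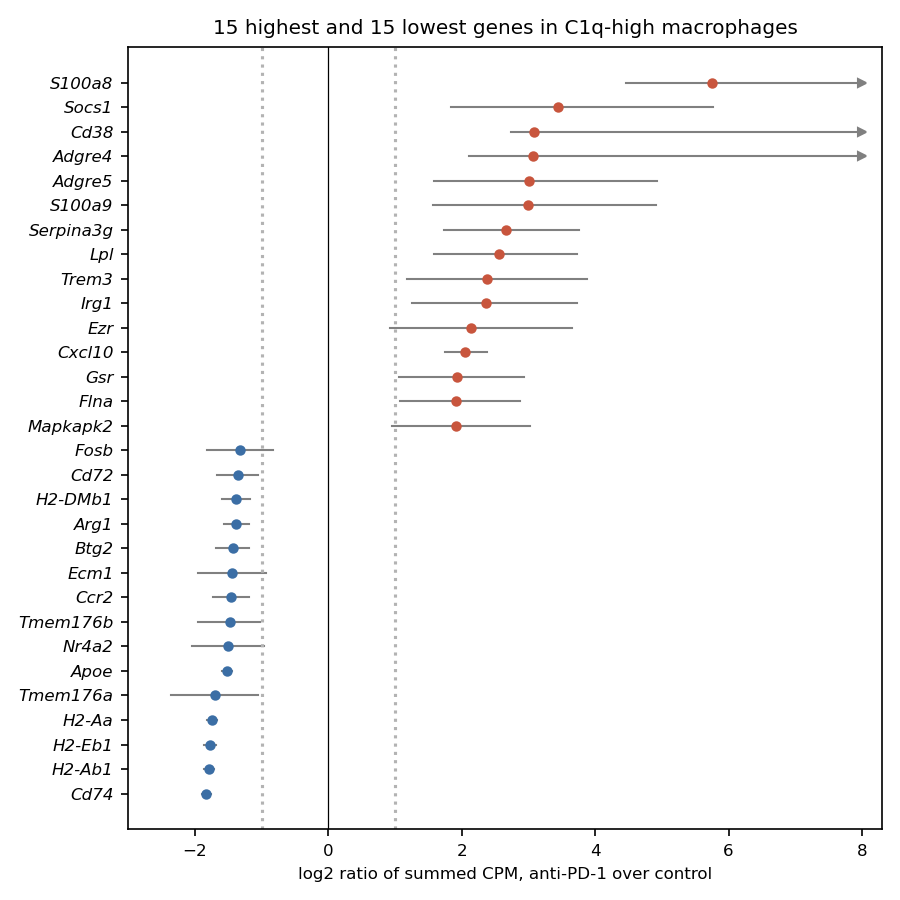
log2 ratio of summed CPM, aPD1 over Control, in C1q-high members for the 15 highest (red) and 15 lowest (blue) genes. Lines are 95% conditional binomial intervals for counting error, dotted lines mark 2-fold, arrows mark intervals that run past the axis, and S100a8, Adgre4 and Cd38 are drawn with the Control count set to 3 UMIs. S100a8 has the highest ratio and Cd74 the lowest, at -1.83.

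Cxcl9 and Cxcl10, chemokines that interferon gamma induces, were higher in aPD1 members. Of 14 measured chemokines in all, 8 were higher, 3 past 2-fold, and 6 lower, 2 past 2-fold, with a median log2 ratio of 0.13. Cxcl10, a ligand of the T-cell receptor CXCR3, was at 282 CPM (227 to 345) in Control members and at 1170 CPM (1090 to 1253) in those of aPD1, a log2 ratio of 2.05 (1.74 to 2.38). It was found in 15 of 63 Control and 69 of 118 aPD1 members. A single Control member held 51.6% of the Control UMIs, and without the highest cell of each library the ratio was 2.96. Thinned to 1000 UMIs per cell, 11.1% (4.59 to 21.6) of Control and 38.1% (29.4 to 47.5) of aPD1 members had a Cxcl10 UMI, against 5.08% and 5.31% of T cells at median depths of 2930 and 2707 UMIs. Cxcl9, another CXCR3 ligand, was at 136 CPM in Control and 314 CPM in aPD1 (log2 1.20, 0.73 to 1.70), in 8 and 41 cells. At 1000 UMIs per cell, 1 Control member had both chemokines, whereas 16 aPD1 members had both, 29 had Cxcl10 alone and 10 had Cxcl9 alone.

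Negative regulators and effectors of the same response followed. Socs1, which blocks cytokine receptor signalling, was at 9.09 CPM (3 UMIs) in Control and 99.2 CPM (68 UMIs) in aPD1, a log2 ratio of 3.45 (1.84 to 5.76). Serpina3g, an intracellular protease inhibitor, was at 30.3 CPM in Control and 191 CPM in aPD1 (log2 2.66, 1.73 to 3.75). Gbp2, a guanylate-binding GTPase that attacks vacuoles of pathogens, was at 191 and 554 CPM (log2 1.54, 1.15 to 1.95), in 34 and 91 cells. Iigp1, an immunity-related GTPase of the same defence, was at 87.9 and 299 CPM (log2 1.77, 1.20 to 2.38). The interval of each of these 4 genes lay above 2-fold. Serpina3g and the guanylate-binding genes belong to families of close relatives between which reads may be shared.

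Of 21 measured interferon gamma response genes, 18 were higher in aPD1, 8 past 2-fold, and 3 were lower, 2 past 2-fold, with a median log2 ratio of 0.85. Past 2-fold were Socs1, Serpina3g, Cxcl10, Iigp1, Gbp2, Gbp7 (1.29), Cxcl9 and Gbp4 (1.06). Irf1, a transcription factor that interferon gamma induces, was at 124 CPM in Control and 191 CPM in aPD1 (log2 0.62, 0.11 to 1.16). The lower genes were Fcgr1 (-0.95), Gbp2b (-1.56) and Ciita (-1.72). The same list had medians of 1.06 in the Ccl8 or Mrc1 macrophages, 0.71 in the hypoxic and 0.52 in the C1q-low cells, so it was above 0 in each group. Over the alternatives in processing it lay between 0.72 and 1.29 in members.

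Genes of the type I interferon response did not share this direction. Of 25 measured, 9 were higher and 16 lower in aPD1, 2 past 2-fold each way, with a median of -0.14. Isg15, a ubiquitin-like modifier, was at 694 CPM in Control and 648 CPM in aPD1 (log2 -0.10, -0.33 to 0.14), and Irf7 at 845 and 541 CPM (-0.64, -0.87 to -0.41). MHC class I and immunoproteasome genes, which both interferon types induce, had 7 higher and 9 lower of 16, and only Nlrc5, their transcriptional activator, was past 2-fold (1.61). The median of the type I list was 0.51 without members that carried monocyte or calprotectin transcripts, so its sign was not stable. Here and below this means at least 2 UMIs of a set given later, at whatever depth, and free RNA may add to them.

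The upstream sequences of Cxcl10 and Socs1 are shown as those of 2 interferon gamma genes with a motif match, chosen after the matches were seen. Serpina3g, whose ratio lay between theirs, had an entry with no match to GAAANNGAAA and 1 to TTCNNNGAA. Each is the 250 bases before the annotated start in RefSeq (GRCm38.p6), written along the gene's strand. Capitals mark the motif GAAANNGAAA, the core of the interferon-stimulated response element, and CCAAT, each searched on both strands. Cxcl10 lies on the minus strand at chr5:92348890-92349139 and Socs1 on the minus strand at chr16:10785537-10785786.
Cxcl10: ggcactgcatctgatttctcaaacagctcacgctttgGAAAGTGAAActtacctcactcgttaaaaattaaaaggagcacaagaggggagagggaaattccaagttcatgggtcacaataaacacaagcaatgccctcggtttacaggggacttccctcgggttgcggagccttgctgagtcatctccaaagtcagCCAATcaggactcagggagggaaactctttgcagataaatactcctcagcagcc
Socs1: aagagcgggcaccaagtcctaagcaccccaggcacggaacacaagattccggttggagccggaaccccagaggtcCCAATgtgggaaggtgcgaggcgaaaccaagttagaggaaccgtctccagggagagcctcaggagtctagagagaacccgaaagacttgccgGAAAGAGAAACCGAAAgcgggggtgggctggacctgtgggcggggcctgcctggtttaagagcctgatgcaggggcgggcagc
The Cxcl10 sequence holds 1 match to GAAANNGAAA and that of Socs1 holds 2 that overlap. Of the 21 interferon gamma genes, 17 had an entry, of which 12 held GAAANNGAAA and 8 held TTCNNNGAA, the gamma-activated site. Among 32851 such upstream sequences in all, 2.98% held GAAANNGAAA and 7.02% held TTCNNNGAA. These matches describe the letters in the window and not bound sites.

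Genes of MHC class II presentation were lower in aPD1 members without exception among those measured. H2-Ab1, the beta chain of I-A, was at 11930 CPM (11560 to 12309) in Control members and at 3440 CPM (3303 to 3582) in those of aPD1, a log2 ratio of -1.79 (-1.87 to -1.72). Its partner H2-Aa was at 10355 and 3092 CPM (-1.74), H2-Eb1, the beta chain of I-E, at 7595 and 2218 CPM (-1.78), and the invariant chain Cd74 at 15069 and 4244 CPM (-1.83). H2-DMb1, which helps load peptides, was at 1345 and 516 CPM (-1.38, but -0.73 with thinned cells and -0.69 without members that carried monocyte or calprotectin transcripts), and its partner H2-DMa at 1218 and 736 CPM (-0.73). Ciita, the transactivator on which the locus depends, was at 57.6 CPM (19 UMIs) and 17.5 CPM (12 UMIs), a log2 ratio of -1.72 (-2.89 to -0.60). Of 8 measured genes, 8 were lower and 7 of them past 2-fold, with a median of -1.76.

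The difference lay in how many members had much MHC class II as well as in its amount. At 1000 UMIs per cell, 58 of 63 Control and 76 of 118 aPD1 members had an H2-Ab1 UMI, 92.1% (82.4 to 97.4) and 64.4% (55.1 to 73.0), against 6.67% and 4.30% of T cells. The 7 classical and loading genes summed to a median of 46 UMIs per 1000 (interquartile range 31.5 to 57.5) in Control and 10 (2 to 31) in aPD1. H2-Ab1 was also lower in aPD1 in the other groups, at 8568 against 4244 CPM in the Ccl8 or Mrc1 macrophages, 7137 against 5515 CPM in the hypoxic and 7504 against 1447 CPM in the C1q-low cells. The list's medians there were -0.96, -0.54 and -1.93.

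The upstream sequences of H2-Aa and H2-Eb1 are shown as those of the 2 most abundant class II chains with an entry. H2-Aa lies on the minus strand at chr17:34287824-34288073 and H2-Eb1 on the plus strand at chr17:34305617-34305866 (GRCm38.p6, RefSeq). Capitals mark CCAAT on either strand, so that it appears as ATTGG where it lies on the opposite strand.
H2-Aa: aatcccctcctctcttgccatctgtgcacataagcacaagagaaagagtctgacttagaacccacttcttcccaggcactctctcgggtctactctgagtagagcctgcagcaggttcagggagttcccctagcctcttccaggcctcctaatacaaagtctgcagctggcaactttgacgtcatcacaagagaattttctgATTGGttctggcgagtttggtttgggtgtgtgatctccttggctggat
H2-Eb1: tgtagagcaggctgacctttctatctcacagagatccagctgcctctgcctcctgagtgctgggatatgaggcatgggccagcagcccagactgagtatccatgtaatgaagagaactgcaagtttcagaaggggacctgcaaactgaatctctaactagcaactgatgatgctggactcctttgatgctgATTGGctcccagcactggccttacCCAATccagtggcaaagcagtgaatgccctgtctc
H2-Aa holds 1 match and H2-Eb1 holds 2. Of the 8 measured class II genes, 5 had an entry, and 5 of those held CCAAT, against 33.8% of all upstream sequences. None of the 5 held GAAANNGAAA. No difference in level is read from these letters, since both libraries share them.

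Apoe was lower in aPD1 members, while lipid handling genes as a list were divided. For Apoe the log2 ratio was -1.52, and its interval ran from -1.59 to -1.45. With cells thinned to 1000 UMIs, 2 of 63 Control members had no Apoe UMI, whereas 44 of 118 aPD1 members had none. It was lower in aPD1 in the Ccl8 or Mrc1 macrophages (11450 against 3793 CPM), the hypoxic (10236 against 3114) and the C1q-low cells (5033 against 806) as well. Of 18 lipid handling genes 9 were higher, 4 past 2-fold, and 9 lower, 3 past 2-fold, with a median of 0.01. Lpl, lipoprotein lipase, was at 27.3 CPM in Control and 160 CPM in aPD1 (log2 2.56, 1.58 to 3.72), in 3 and 27 cells. The sterol sensor Nr1h3 was higher on few UMIs, 5 in Control and 36 in aPD1 (1.79, 0.44 to 3.50). The cholesterol hydroxylase Ch25h was higher too (1.56), found in 7.94% of Control and 18.6% of aPD1 members. Trem2, a lipid receptor of macrophages, was at 406 and 198 CPM (-1.03, -1.39 to -0.68) and the fatty acid-binding Fabp5 at 182 and 87.5 CPM (-1.05).

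Arg1, which encodes arginase 1, was lower in aPD1 members. The gene (chromosome 10, 24915221 to 24927484, minus strand, GRCm38), in the title of the series, was at 1606 CPM (1472 to 1748) in Control members and at 615 CPM (558 to 677) in those of aPD1, a log2 ratio of -1.38 (-1.57 to -1.20). It was found in 39 of 63 and 49 of 118 members, and at 1000 UMIs per cell in 49.2% (36.4 to 62.1) and 33.1% (24.7 to 42.3), against 1.90% and 0.948% of T cells. At that depth, 13 aPD1 members had both Arg1 and Cxcl10, 26 had Arg1 alone, 32 had Cxcl10 alone and 47 had neither. In Control 3 had both, 28 Arg1 alone, 4 Cxcl10 alone and 28 neither. Whether the 2 genes were carried by different cells was not tested, and no separation is read from these counts. Without members that carried monocyte or calprotectin transcripts the Arg1 ratio was -0.51, and with thinned cells it was -0.81, both short of 2-fold. Nos2, the other arginine-using enzyme of macrophages, had 0 UMIs in Control and 4 in aPD1 members, too few for a ratio. Of 7 alternative activation genes, 6 were lower, 2 past 2-fold, among them the lectin Mgl2 (-2.70), and Chil3 was higher, at 439 and 706 CPM (0.68, 0.41 to 0.96).

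Cd72, Ms4a7 and Gatm, the markers named above, were lower in aPD1 members, Gatm by less than 2-fold. Cd72 had a log2 ratio of -1.36 (-1.66 to -1.05), Ms4a7 of -1.07 (-1.31 to -0.83) and Gatm of -0.94 (-1.22 to -0.66). All 6 measured Ms4a genes were lower, 3 past 2-fold, with a median of -0.90. Of 13 tissue macrophage genes 10 were lower (median -0.33), led by Tmem119 (-2.22). Complement genes had a median of -0.38 with 3 higher and 8 lower, but 0.02 without members that carried monocyte or calprotectin transcripts. Lysosome genes were lower in 17 of 19, of which Ctss, a cathepsin that trims the invariant chain, was at -1.06, and Lgmn, an asparaginyl endopeptidase, at -1.09. Tmem176a (161 and 49.6 CPM) and Tmem176b (285 and 102 CPM), which encode paired membrane proteins, had ratios of -1.70 and -1.48, and that of Tmem176b was -0.83 without members under 10 MHC class II UMIs, described at the end.

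Cytokine genes were divided. Il1b, the inflammatory interleukin 1 beta, was at 3072 CPM in Control and 1520 CPM in aPD1 (log2 -1.02, -1.14 to -0.89). Irg1, which makes itaconate in activated macrophages, was at 21.2 CPM (7 UMIs) and 109 CPM (75 UMIs), a log2 ratio of 2.37 (1.25 to 3.73), in 4 and 32 cells. Of 15 inflammatory genes 8 were higher, 4 past 2-fold, and 7 lower, 2 past 2-fold. Ccl12 was at 339 and 897 CPM (1.40, 1.11 to 1.71), while Ccl2 (0.43), Ccl7 (0.16) and Ccl6 (0.11) differed little. Ccl5 had a ratio of -1.32 that became -0.62 without the highest cell of each library. The PD-1 ligand Cd274 was at 51.5 CPM (17 UMIs) and 74.4 CPM (51 UMIs), and its interval of -0.29 to 1.42 included no difference.

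Immediate early genes, which cell dissociation also raises, were lower in 16 of 18 measured members of their list, 7 past 2-fold (median -0.82). Fos was at 2569 CPM in Control and 1200 CPM in aPD1, Btg2 at 972 and 360, Nr4a2 at 215 and 75.8, and Fosb at 233 and 93.3 CPM. The ratio of Fosb, -1.32, was -0.54 with thinned cells, and that of Btg2, -1.43, was -0.78 without members that carried monocyte or calprotectin transcripts. The list's medians were -0.54, -0.62 and -0.95 in the other groups. Its part in the other differences was not tested. Of 22 hypoxia and glycolysis genes 20 were lower (median -0.45), though the rule limited 4 genes of that kind.

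**Figure D3:**
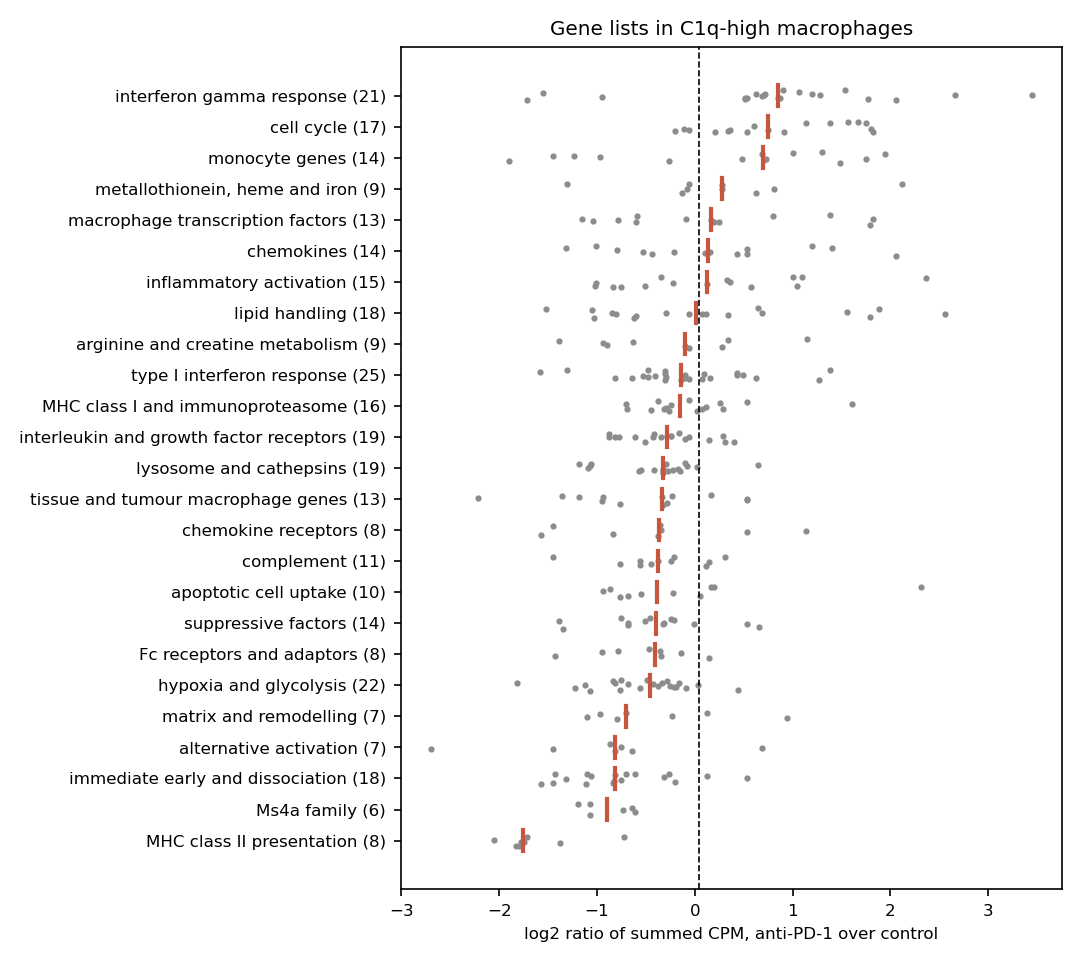
log2 ratio of summed CPM, aPD1 over Control, for the measured genes of each list in C1q-high members (grey points, number measured in parentheses), with the list's median in red and the median of all 4692 genes as the dashed line. MHC class II genes lie lowest (median -1.76) and interferon gamma response genes highest (median 0.85) among the lists drawn, which have at least 5 measured genes.

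The calprotectin genes S100a8 and S100a9 were higher in aPD1 members. S100a8 had 2 UMIs in Control (6.06 CPM) and 335 in aPD1 (489 CPM), in 2 and 36 cells, and the log2 interval was 4.47 to 9.38. A single aPD1 member held 27.8% of these UMIs. S100a9, which encodes the other calprotectin subunit, was at 12.1 and 96.3 CPM (log2 2.99), but free RNA alone accounts for an estimated 134 CPM of it in aPD1 members and 159 CPM of S100a8. With free RNA subtracted, S100a9 had no ratio because it was at or under 3 UMIs in both libraries, and S100a8 stood at 5.20. Adgre4, an adhesion receptor of nonclassical monocytes, had 1 UMI in Control and 52 in aPD1, in 21 cells, with a log2 interval of 2.10 to 9.98. Cd38, an NAD-degrading surface enzyme, had 0 UMIs in Control, which allows up to 9.09 CPM, and 53 in aPD1 (77.3 CPM), in 27 cells. Its log2 ratio was 3.09 with the Control count set to 3 UMIs. Adgre5 (3.01), Trem3 (2.38), Flna (1.92) and Gsr (1.93) were higher too. With cells thinned to 1000 UMIs the ratios were -0.17 for Adgre4, 0.51 for S100a9, 0.68 for Adgre5, 0.83 for Trem3, and 0.97 for Cd38 and for Gsr. Without members that carried monocyte or calprotectin transcripts Trem3 was at 0.81 and Flna at 0.63, and without members under 10 MHC class II UMIs Trem3 was at 0.90.

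Monocyte genes did not move together. Spn (1.95 with 1 Control UMI set to 3), Treml4 (1.75), Itgal (1.49) and Ifitm6 (1.30) were higher, whereas Ccr2, the receptor by which monocytes leave the marrow, was at 827 and 302 CPM (-1.45, -1.72 to -1.19) and Ly6c2 at 1957 and 834 CPM (-1.23, -1.40 to -1.07). Of 14 measured, 9 were higher, 5 past 2-fold, and 5 lower, 3 past 2-fold, with a median of 0.70. Of genes of this kind, 7 (Ace, Treml4, Adgre4, Spn, S100a8, S100a9 and Ifitm6) were summed per cell, as a set chosen after values were seen. At 1000 UMIs per cell, 0 of 63 Control and 17 of 118 aPD1 members held at least 2 UMIs of the set. Counted among all UMIs of a cell instead, leaving out members with at least 2 of the set kept 58 Control and 78 aPD1 members. This limit was not scaled to depth, so deep cells reach it more readily, and free RNA of S100a8 and S100a9 adds to it. How many of the members left out held only free RNA was not tested. Among those, 27 genes were past 2-fold higher and 16 lower, S100a8 and Adgre4 had too few UMIs for a ratio, and the monocyte median was -0.81. The choice of cells by these same genes fixed the loss of S100a8 and Adgre4. It also pushes down the monocyte median, since Spn, Treml4 and Ifitm6 are in both sets. Gsr turned to -0.48, Apoe stood at -0.64 and Cd72 at -0.37, whereas Cxcl10 stood at 2.73, Socs1 at 3.55 and MHC class II at a median of -1.10.

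Cell cycle genes had 14 of 17 higher in aPD1, 7 past 2-fold, with a median of 0.75. Birc5 (1.80), Ccnb2 (1.57) and Stmn1 (1.39), which act in mitosis, were among them. A single Control member held 65.2% of the Control Stmn1 UMIs. Mki67 had 3 UMIs in Control and 9 in aPD1, and the list's median was -0.08 when members with little MHC class II were left out.

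Members differed strongly among themselves. Over 627 genes at 1000 UMIs per cell, the median Fano factor (variance over mean, near 1 for counting noise alone) was 1.13 in Control and 1.15 in aPD1. By the smaller value of both libraries, the genes that varied most were Malat1, Ccl5, Lyz2, Fth1, Apoe, H2-Ab1, Ccl4, Cd74, Ly6c2, Actb, Plac8 and Tmsb4x. Apoe had Fano factors of 5.55 in Control and 8.99 in aPD1, and H2-Ab1 of 4.90 and 8.20. Ccl5 had 39.2 and 10.2, with 51 of 63 and 93 of 118 members at 0. Ly6c2 had 4.63 and 6.20, with 34 of 63 and 84 of 118 at 0. Thus Apoe and class II varied more in aPD1 than in Control, and part of the cells had none.

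**Figure D4:**
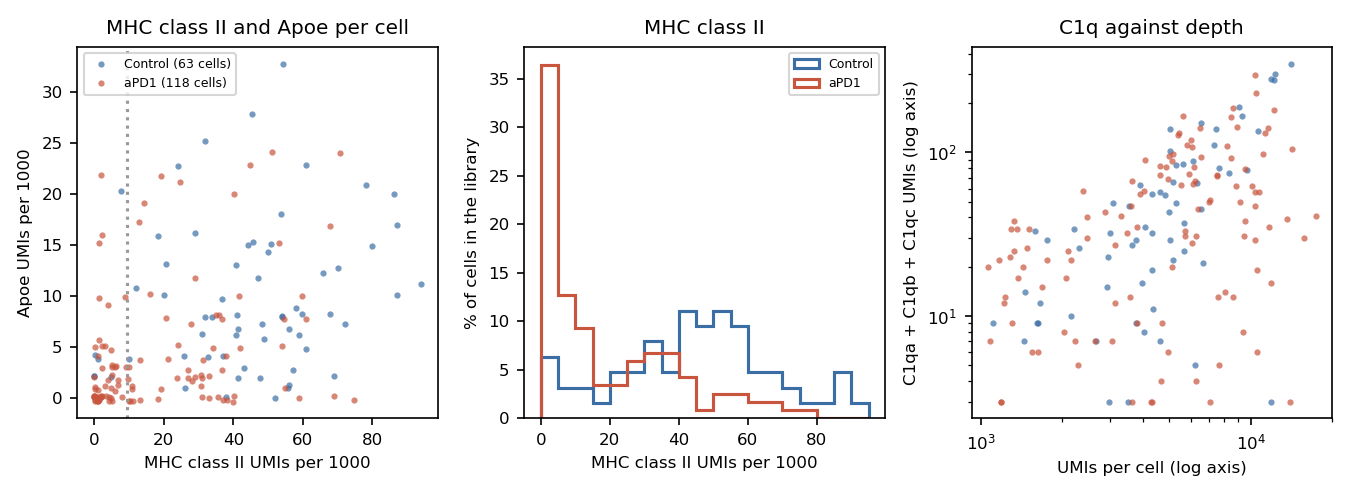
Single C1q-high members, Control blue and aPD1 red. Left, Apoe UMIs against MHC class II UMIs (7 genes), both per 1000 UMIs of a cell, with a dotted line at 10; middle, share of each library's members by MHC class II UMIs; right, C1q UMIs against all UMIs of a cell (log axes). Under 10 class II UMIs lie 6 of 63 Control and 58 of 118 aPD1 members.

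A limit of 10 class II UMIs per 1000 was set after values were seen, to compare aPD1 members on either side of it. In Control 6 of 63 members (9.52%, 3.58 to 19.6) lay under it and in aPD1 58 of 118 (49.2%, 39.8 to 58.5), with 3 aPD1 members within 2 UMIs below the limit and 7 at most 2 above it. The low cells were not shallower, at a median of 6462.5 UMIs against 4923.5 for the other aPD1 members. Their C1q level was 6332 against 12633 CPM. Of 951 genes, 106 (11.1%) were past 2-fold between the low and the other cells, a description since both come from 1 library and were split on measured values.

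S100a8, Ube2c and Birc5 led the genes that were higher in low cells. S100a8 was at 786 CPM in them and 85.8 CPM in the others, Chil3 at 1024 and 275 CPM, and Ifitm6 at 185 and 48.1 CPM. Ube2c (170 and 27.5 CPM), Birc5 (142 and 30.9) and Stmn1 (264 and 72.1), which act in cell division, were higher as well. Csf1r, the receptor for macrophage growth factor and one of the rule's genes, was at 324 and 268 CPM, Ly6c2 at 801 and 879 CPM, and Ccr2 at 215 and 419 CPM. Csf1r, Ly6c2 and Ccr2 differed by less than 2-fold between the low and the other cells.

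The same cells had less of the genes that were lower in aPD1 as a whole, and of some that were higher. Apoe was at 2000 CPM against 6500 CPM, Arg1 at 279 against 1071, Cd72 at 112 against 412, Il1b at 695 against 2637 and Ms4a7 at 251 against 649 CPM. Cxcl10 was at 773 against 1707 CPM and Cxcl9 at 193 against 477 CPM, so the chemokines were not carried by the low cells in particular. Fcgr4, an Fc receptor, was at 322 against 879 CPM. In Control, the 6 low cells also had more Chil3, at 1351 against 337 CPM, but more Cd72 (1021 against 566 CPM) and Ms4a7 (1531 against 812 CPM), too few cells to compare with aPD1.

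With the low members left out of both libraries, 14 genes were past 2-fold higher in aPD1 and 9 lower. MHC class II then had a median of -0.79, which this choice by the same genes pushes towards 0. Apoe stood at -0.83, Arg1 at -0.65 and Cd72 at -0.46, each short of 2-fold, while Cxcl10 stood at 2.46, Socs1 at 3.40 and the interferon gamma list at a median of 1.22. Of the members with many class II UMIs, the aPD1 cells were therefore still higher in interferon gamma response genes, and their difference in Apoe, Arg1 and Cd72 was smaller than over all members.

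**Figure D5:**
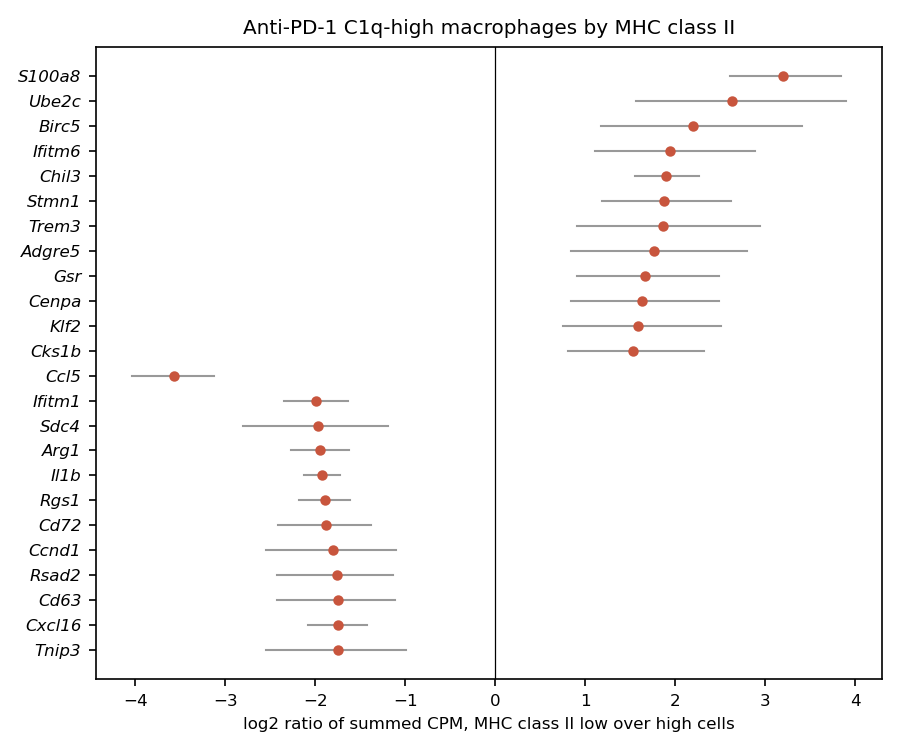
log2 ratio of summed CPM between aPD1 members with fewer than 10 class II UMIs per 1000 (58 cells) and the other aPD1 members (60 cells), for the 12 highest and 12 lowest genes. Lines are 95% conditional binomial intervals for counting error. S100a8 lies highest at 3.19 and Ccl5 lowest at -3.57.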

How the data were processed

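Cell Ranger 2.1 and the mm10 build are named in the submitters' processing notes. The authors deposited raw UMI counts of each gene in each barcode, including barcodes without cells. No other filter by the authors is given in the sources used here. Gene symbols were paired with identifiers by the deposited gene table.

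Members were chosen by the rule in the text. The comparison groups shared its UMI, mitochondrial, Cd3 and macrophage criteria: Ccl8 and Mrc1 of at least 2, or else hypoxia genes of at least 2, or C1q under 3 with at least 1 Csf1r UMI, no Ncr1 and fewer than 2 UMIs of Cd209a, Flt3 and Ccr7. T cells for background had at least 3 Cd3 UMIs and no UMI of Csf1r or Cd68. Counts were summed over cells and divided by the group's total (CPM). Levels carry exact Poisson, shares exact binomial (Clopper-Pearson) and ratios conditional binomial intervals at 95%. PCR copies are removed by UMIs, and droplet losses are not modelled. For ranking, fewer than 3 UMIs were set to 3, and with both groups at or under 3 no ratio is given. A count of 0 allows 3 counts. Per-cell shares and Fano factors used cells thinned to 1000 UMIs.

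The members and the 32 lists were chosen with earlier results of these data known. Genes named were the 15 highest and 15 lowest ratios in each main comparison (5 against each group alone), up to 4 genes per list, 12 genes by Fano factor, and a fixed set that included the rule's genes, taken from genes reaching 50 UMIs and 50 CPM on the higher side (20 UMIs of both sides together for lists). Mitochondrial, ribosomal, immunoglobulin, T-cell receptor and unnamed genes were left out. More than 4 genes are named in some lists, chosen after their values were seen. Trac, Trbc1 and Trbc2 are not used here, and some genes that meet the rule for named genes are not reported here. Free RNA in cells was estimated from macrophage genes in T cells. Ratios were tested on simulated counts with known changes. Strand and the treatment of reads shared by related genes are not given in the sources used here. Calculations used Python 3.11.15 with numpy 2.4.6, scipy 1.17.1, pandas 2.3.3 and matplotlib 3.10.9.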

Additional observations from a re-analysis of the deposited data

How the results depend on the processing

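No paired analysis was possible because each group has 1 library. When the rule was applied to cells thinned to 1000 UMIs the Control share of members was 7.92%. Counts of genes past 2-fold in aPD1 over Control, 59 higher and 39 lower, became 8 and 11 with thinned cells (231 genes measured), 332 and 184 with 20 UMIs in both libraries together as the limit, and 24 lower with means over cells. In alternatives chosen after seeing the data they became 39 higher with at least 20 C1q UMIs, 27 and 16 without members carrying monocyte or calprotectin transcripts, and 14 and 9 without members under 10 MHC class II UMIs. For members over the other cells, 2 higher and 17 lower became 1 higher with at least 6 C1q UMIs and 1 without lymphocyte transcripts, 5 higher with means over cells, 10 higher and 44 lower with a limit of 20 UMIs in members and others together, 10 higher with a wider C1q-low group, and 5 lower with thinned cells.

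Signs turned for Adgre4 (-0.17, thinned), Gsr (-0.48, without monocyte or calprotectin transcripts) and Gpr171 (-0.021 in Control with a wider C1q-low group, -0.40 in aPD1 thinned). Of the 30 genes named for aPD1 over Control 28 kept their sign in every alternative that gave a value, as did 15 of 25 list medians. MHC class II medians ran from -1.85 to -0.79 and those of cell cycle genes from -0.08 to 1.40. The cause of these shifts was not tested. The limits are 1 library per group, 63 and 118 cells, and genes of few UMIs in Control members.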
